A study of Homo sapiens with 8 samples.

Results

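EZH2 A677G was compared with EZH2 WT by ATAC-seq, in which the Tn5 transposase cuts accessible DNA so that sequenced fragments pile up into peaks over open chromatin. The cells were HEK293T, a human embryonic kidney line, infected with lentivirus carrying wild-type EZH2 or EZH2 with the A677G substitution and selected with blasticidin. The 2 groups had 2 libraries each, out of 8 libraries of 4 lines in the series, the other lines carrying EZH2 Y641F or EZH2 H689A/F667I. The study describes the populations as monoclonal, in which case a line stands for a clone as much as for its EZH2 construct. No deletion of the cells' own EZH2 was described, so both groups still held the endogenous gene beside the construct. Merging the overlapping peaks of the 4 lists on chromosomes 1 to 22 gave 84331 regions, where the 8 libraries together gave 98302. A region was called lost with a peak in both WT libraries and in neither A677G library, gained in the reverse case, and kept with a peak in all 4.

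EZH2 is the catalytic subunit of Polycomb repressive complex 2 (PRC2), which methylates lysine 27 of histone H3 and thereby helps to keep developmental genes silent. The substituted alanine lies in the catalytic SET domain, and its exchange for glycine is known from lymphoma as a gain-of-function change that raises trimethylation of this lysine. Chromatin that carries trimethylated lysine 27 is commonly compact and poorly accessible to transposase, and the comparison asked which open regions of WT cells had no peak in A677G cells and which appeared.

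The sequences below show the strongest lost and gained regions outside promoters, as the central 200 bp on the plus strand of hg38 from 5′ to 3′. Capitals mark matches on either strand to 15 short motifs, each searched separately so that matches may overlap. The motif of AP-1 was TGANTCA, that of CTCF its core CNAGNGGGC, that of the GATA factors AGATAA, that of NFY the box CCAAT, that of basic helix-loop-helix factors the E-box CAGCTG, that of RUNX factors TGTGGT, that of TEAD factors GGAATG, that of HOX factors TTTATGG, that of ZIC factors CCTGCTG, that of ETS factors CCGGAAG, that of SOX factors ACAAAGG, that of YY1 the letters AAGATGGC, that of NRF1 the letters GCGCATGCG, that of SMAD factors the palindrome GTCTAGAC and that of SP and KLF factors the GC box GGGCGG. A match describes letters and not a bound factor. The first set is lost regions, named by the gene that holds them or has the nearest start.
FREM2, chr13:38662523-38662722: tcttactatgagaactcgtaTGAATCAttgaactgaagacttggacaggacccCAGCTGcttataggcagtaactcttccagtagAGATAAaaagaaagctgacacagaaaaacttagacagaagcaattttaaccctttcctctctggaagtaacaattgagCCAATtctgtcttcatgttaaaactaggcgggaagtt
CDC42SE2, chr5:131382464-131382663: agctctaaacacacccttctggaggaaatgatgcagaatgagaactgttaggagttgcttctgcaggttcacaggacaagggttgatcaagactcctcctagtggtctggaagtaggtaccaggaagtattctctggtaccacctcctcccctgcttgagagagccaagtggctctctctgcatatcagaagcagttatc
DEFB131A, chr4:9495555-9495754: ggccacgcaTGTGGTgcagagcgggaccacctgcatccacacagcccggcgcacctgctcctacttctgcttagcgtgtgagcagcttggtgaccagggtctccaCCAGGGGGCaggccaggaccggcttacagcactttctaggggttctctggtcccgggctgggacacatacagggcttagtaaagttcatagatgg
The second set is gained regions, named in the same way.
CCSER1, chr4:90838812-90839011: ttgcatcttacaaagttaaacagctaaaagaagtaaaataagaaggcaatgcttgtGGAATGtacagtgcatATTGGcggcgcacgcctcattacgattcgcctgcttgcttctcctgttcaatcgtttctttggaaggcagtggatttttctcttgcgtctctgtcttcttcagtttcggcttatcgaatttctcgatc
CPNE7, chr16:89571630-89571829: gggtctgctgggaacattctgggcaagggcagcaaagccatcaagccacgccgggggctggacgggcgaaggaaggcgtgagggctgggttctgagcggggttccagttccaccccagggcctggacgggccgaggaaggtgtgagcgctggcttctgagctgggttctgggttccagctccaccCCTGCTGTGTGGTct
AMOTL1, chr11:94774335-94774534: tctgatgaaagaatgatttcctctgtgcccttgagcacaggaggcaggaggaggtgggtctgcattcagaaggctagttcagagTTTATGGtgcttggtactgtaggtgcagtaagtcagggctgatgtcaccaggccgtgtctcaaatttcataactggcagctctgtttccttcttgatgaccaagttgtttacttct
The lost region near FREM2, a basement membrane protein gene, held an AP-1, an NFY, a GATA and an E-box match, and that near the beta-defensin gene DEFB131A held a CTCF core match. The window in CDC42SE2 held no match to any of the motifs. The gained window in CCSER1 had a GC content of 42.5% and ran into the annotated processed pseudogene TMSB4XP8, a copy of the thymosin beta-4 gene TMSB4X, and the gained window near CPNE7 was the richest in GC of the 6, at 66.0%.

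Fewer peaks were called in A677G. The WT libraries held 62739 and 60420 peaks and the A677G libraries 36744 and 44754, so the groups did not overlap. The means were 61579.5 ± 1640 peaks for WT and 40749 ± 5664 for A677G (SD, n = 2), a log2 ratio of -0.60. Covered length was 41.09 and 39.9 Mb in WT and 21.68 and 26.04 Mb in A677G, a log2 ratio of -0.76. With 2 libraries against 2, the exact two-sided permutation test gave p = 0.333 for either measure, which is the smallest value that it can give. Promoter peaks, meaning peaks within 1 kb of a start of a protein-coding transcript, numbered 14370 and 14262 in WT and 12913 and 13746 in A677G. Peaks elsewhere numbered 48369 and 46158 in WT against 23831 and 31008 in A677G, so the shortfall lay mostly away from promoters. The median fold over background was much the same, at 3.744 ± 0.0424 in WT and 3.71 ± 0.0948 in A677G. Read depth was not given in the sources used here, and a lower depth and a loss of open chromatin cannot be told apart from the number of peaks.

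Because the lists differed in length, each class was also built from the top 38000 peaks of each library by −log10 p, the MACS2 score of a peak against local background. The weakest peak inside this limit had a −log10 p of 5.30848 and 5.25407 in WT and of 3.18036 and 3.95696 in A677G, and the strongest peak just outside had 5.30837, 5.25361, 3.17922 and 3.95682. The limit was therefore much stricter for WT than for A677G.

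With all peaks, 9769 of the 47007 regions with a peak in both WT libraries were lost (20.8%), and 369 of the 28949 open in both A677G libraries were gained (1.27%). A total of 27725 regions were kept, which was 58.98% of those open in the WT pair, and another 9513 had a peak in 1 of the 2 A677G libraries. With the top 38000 peaks, 2727 of 29958 were lost (9.1%), 1621 of 27270 were gained (5.94%) and 23136 were kept. Lost regions outnumbered gained regions in both settings, though by far less when the lists had equal length. Of the 2727 lost regions, 2326 (85.3%) were also lost with all peaks. Of the 1621 gained regions, only 212 (13.08%) were also gained with all peaks, whereas 1016 (62.68%) had a weaker peak in both full WT lists. Most gains of the equal-length lists were thus differences in rank and not in presence. The limit left out 26936 and 24528 peaks of the WT lists but only 28 and 8372 of the A677G lists. The high overlap of losses and the low overlap of gains were therefore largely set by the limit. Being lost in both settings is not independent support for a loss.

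Lost regions lay mostly away from promoters in both settings. With all peaks, 46.85% (95% Wilson interval 45.86 to 47.84) were intergenic, 40.84% (39.87 to 41.82) intronic, 6.285% on exons and 6.019% (5.564 to 6.508) at promoters. Gained regions were alike, with 25 of 369 at promoters (6.775%, 4.631 to 9.81). Among kept regions 43.9% (43.32 to 44.49) were at promoters. With the top 38000 peaks the promoter share was 6.454% of lost, 15.18% of gained and 48.7% of kept regions. Of all 84331 regions 15416 were at promoters. The share depended on the threshold, and with only peaks of a −log10 q of at least 5 it was 31.45% of lost and 69.34% of kept regions. The study reported that depleted open regions were mainly at promoters. It tested read counts with limits on q-value and fold change and plotted normalized genomic distributions. The shares here are raw counts of peak calls, so they are not set against that statement. The intervals cover counting error only, and neighbouring regions are not independent.

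**Figure D1:**
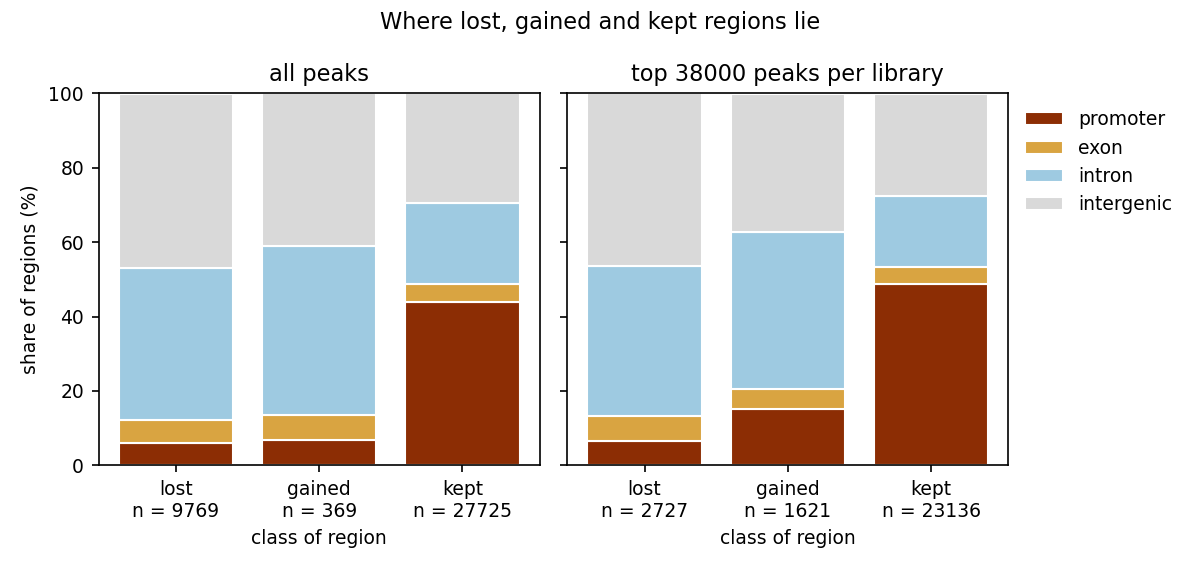
Share of lost, gained and kept regions (percent, vertical axis) at promoters, exons, introns and intergenic sequence, with all peaks on the left and the top 38000 peaks per library on the right. Promoters make up 43.9% and 48.7% of kept regions but 6.019% and 6.454% of lost regions.

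Lost regions had weak peaks in WT. Their median −log10 p was 4.865 and 4.878 in the 2 WT libraries, against 9.292 and 9.061 for kept regions, and 108 and 113 of them passed 10. Their median width was 501 bp, and 9.817% were wider than 1 kb, against 1037 bp and 52.92% for kept regions. Kept regions also had smaller values in A677G, with a median −log10 p of 6.728 and 7.283. The A677G peaks within kept regions were narrower, with a median of 620 bp against 854 bp in WT, a median ratio of 0.7866. The fold in kept regions differed less, with medians of 4.269 and 4.279 in WT and 3.99 and 3.984 in A677G. Gained regions had a median −log10 p of 4.133 and 4.12 in A677G.

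**Figure D2:**
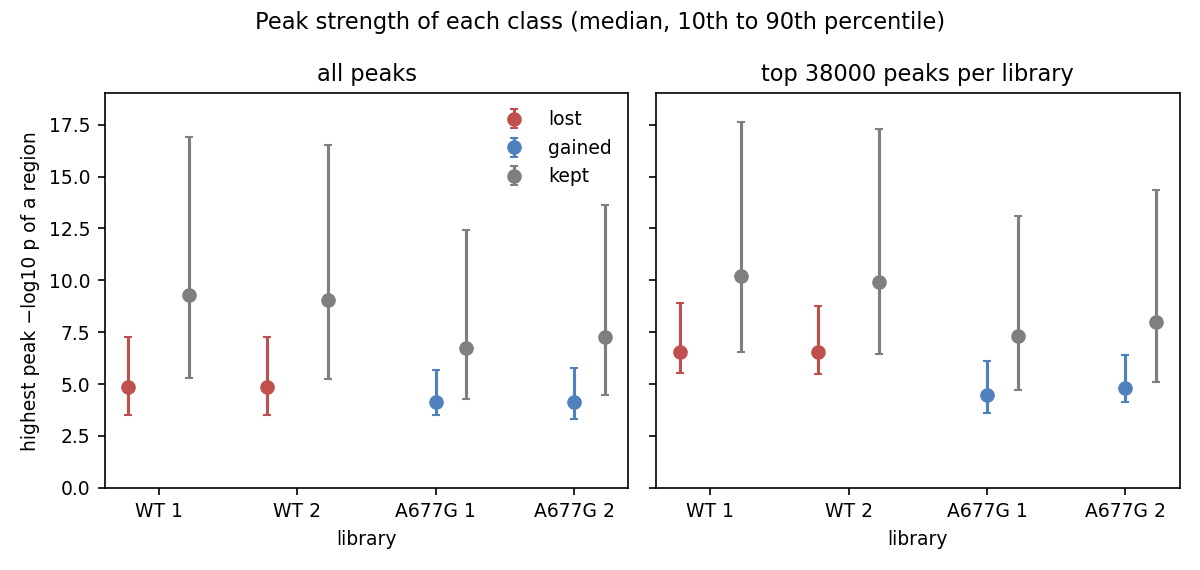
Highest −log10 p of a peak in lost, gained and kept regions by library, as the median with the 10th to 90th percentile, for all peaks (left) and the top 38000 (right). In WT the lost regions sit near 4.9 and the kept regions near 9, and a class has no point in libraries where it has no peak by definition.

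At the level of genes, 13371 of 18773 protein-coding genes had a promoter peak in both WT libraries. Of these, 293 lost it (2.19%) and 12503 kept it with all peaks. Only 15 of the 12555 genes with a promoter peak in both A677G libraries gained it (0.119%). With the top 38000 peaks, 88 of 12179 were lost (0.723%) and 182 of 12362 were gained (1.47%). The promoter of EZH2 itself was open in all 4 libraries, with a −log10 p of 13.07 and 12.94 in WT and 10.05 and 8.383 in A677G. These peaks lie at the endogenous gene and do not report on the construct.

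A promoter was lost in both settings for 60 genes, and the 10 strongest were examined. The region was kept for 13 of all 293 genes lost with all peaks and 9 of the 88 with the top 38000. Among the 10 strongest this held for 4, where the change was one of extent. At WNT6, which encodes a secreted WNT ligand, the peak had a −log10 p of 14.98 and 19.45 in WT and of 15.84 and 17.13 in A677G. It began 900 and 914 bp from the nearest start in WT but 1024 and 1037 bp away in A677G, just past the 1 kb limit, and the region was kept. At TBR1, a T-box factor of cortical neurons, the WT peaks came within 938 and 498 bp and the A677G peaks within 1313 and 1018 bp, with a −log10 p of 14.73, 13.28, 10.48 and 13.06. SAMD10 and PVRIG, the latter an inhibitory receptor of T and natural killer cells, showed the same. The SAMD10 peaks were 1814 and 1495 bp wide in WT and 693 and 727 bp wide in A677G, and those of PVRIG 1020 and 1061 bp against 214 and 224 bp. These genes count as lost only because narrower peaks no longer reached the promoter.

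At the others the region itself had no A677G peak. GIT1, a scaffold that acts on ARF GTPases, had a −log10 p of 11.32 and 9.334 in WT and a peak in all 4 libraries of the other mutants, between 4.496 and 9.133. This peak lay 738 and 727 bp from the start of an internal transcript and 13411 and 13400 bp from the 5′ end of the gene, and a peak 1651 to 1994 bp from that end was present in all 4 libraries, at 8.144 and 8.229 in WT and 6.256 and 5.706 in A677G. C5AR1, the receptor for complement C5a, had 11.26 and 7.267 in WT and a peak in 3 of those 4 libraries. Its WT peaks began at chr19:47296085 and 47295975, inside the gene, whose 5′ end lies at 47290023. F11, coagulation factor XI, had 7.884 and 10.99, and besides WT only the second Y641F library had a peak, at 7.754. The WT peaks of C5AR1 lay 608 and 336 bp from a start and those of F11 208 and 523 bp, so that neither promoter was lost within a limit of 500 bp. The zinc finger gene ZNF502 had 8.857 and 10.05 with a peak covering its first exon, and besides WT only the first H689A/F667I library had one. C4orf51 had 8.493 and 9.366 and a peak in both H689A/F667I libraries.

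A promoter was gained in both settings for 8 genes. HBB, which encodes the beta chain of adult hemoglobin, stood first, with a −log10 p of 9.983 and 15.44 and a fold of 6.05 and 7.285 in A677G, and no promoter peak in the other 6 libraries. The wider of its peaks, at chr11:5226485-5227074 in hg38, covered all of exons 1 and 2 and the intron between them, and it ended next to the annotated start. Whether its reads came from spliced or misplaced fragments was not tested. The next values were much lower. ITGA10, a collagen-binding integrin subunit, had 5.969 and 4.685 and no peak in any other line. S100P, a calcium-binding protein gene, had 5.851 and 4.796, and only the second H689A/F667I library had a peak besides. AIFM3, a mitochondrial oxidoreductase gene, had 4.141 and 3.962, and ODF3, a sperm tail component, had 3.514 and 4.231. The AIFM3 peaks began at chr22:20967558 and 20967587, inside the gene, whose 5′ end lies at 20965108. PYCARD, the inflammasome adaptor ASC, had 3.675 and 4.027 in A677G and 3.866 to 5.333 in the 4 libraries of the other mutants, so that WT stood apart there. The PYCARD peaks in A677G ended at chr16:31202138 and 31202247, inside the gene, whose 5′ end lies at 31203450. Neither S100P nor PYCARD was gained within a limit of 500 bp. ENSG00000237378 had 3.498 and 4.097. UGT1A5, a glucuronosyltransferase gene, was again a matter of extent, since WT peaks lay 1231 and 1159 bp from a start and A677G peaks 981 and 738 bp, in a kept region.

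**Figure D3:**
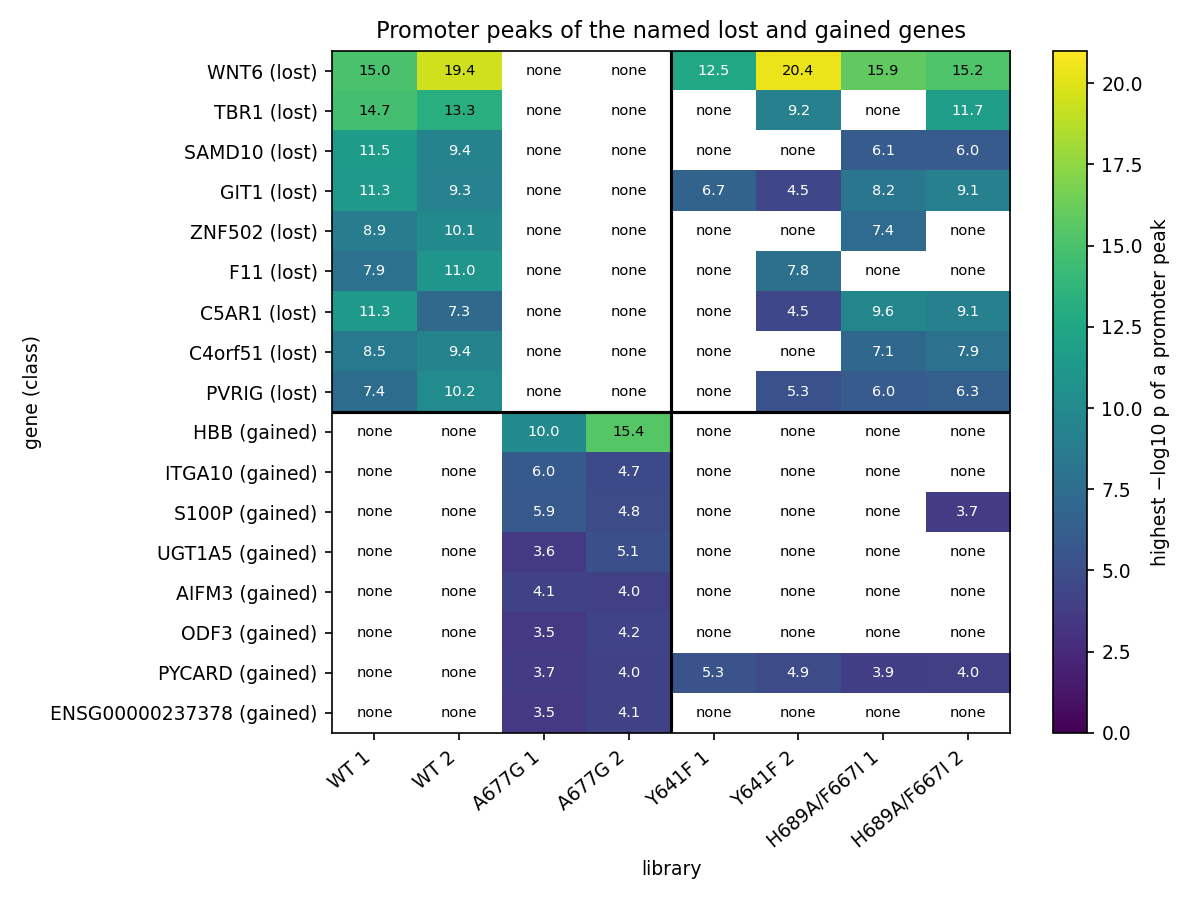
Highest −log10 p of a promoter peak (color and number) for the lost and gained genes described (rows) in the 8 libraries (columns), with "none" where no peak lay within 1 kb. HBB has 9.983 and 15.44 in A677G and none elsewhere, while PYCARD has a peak in every library but the WT pair.

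Of the kept promoters, those with the highest values in all 4 libraries are given as a description, since the choice itself requires high values in both groups. BPGM, which makes 2,3-bisphosphoglycerate, had a −log10 p of 31.11 and 33.58 in WT and 32.45 and 31.63 in A677G. METTL13, a methyltransferase of elongation factor 1A, had 33.89 and 30.61 in WT and 32.17 and 34.9 in A677G. PPME1 and C2CD3 share a divergent promoter and had 39.22 and 36.54 in WT and 30.91 and 30.59 in A677G. SLC35B4, a nucleotide sugar transporter gene, had 34.83 and 38.32 in WT and 30.33 and 35.32 in A677G.

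The 10 strongest lost regions outside promoters were intronic in CDC42SE2, ZNF710, NRCAM, FOXP1 and IL17RD and intergenic near FREM2, DEFB131A, LRCOL1, ABHD17C and TCOF1. The region 24454 bp from the start of FREM2 had a −log10 p of 15.21 and 10.91 in WT. The intronic region of CDC42SE2, a CDC42 effector, had 14.29 and 11.04 and was open in all 4 libraries of the other mutants. That of NRCAM, a neuronal adhesion molecule, had 12.21 and 10.45, and that of FOXP1, a forkhead repressor, had 11.45 and 11.17. Both of these were open in both H689A/F667I libraries and in neither Y641F library. The region in IL17RD, an inhibitor of FGF signalling, had 14.73 and 7.871 and was open in none of the 4. The DEFB131A region overlapped the unprocessed pseudogene UNC93B7 by 316 bp, where reads of related copies could be shared.

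Of the 10 strongest gained regions, that in CCSER1 had a −log10 p of 9.117 and 9.312 and a fold of 5.741 and 5.721 in A677G, and no peak in any other library. It contained all 135 bp of TMSB4XP8. TMSB4X itself, on chromosome X and so outside the classes, had a peak at its start in all 8 libraries, with a −log10 p of 7.569 and 7.425 in WT and 6.892 and 7.352 in A677G. The region in TBCA, a tubulin folding cofactor, had 6.092 and 7.101 in A677G only, and overlapped the processed pseudogene ACTBP2, a copy of beta-actin, by 344 bp. Over all gained regions 9 of 369 overlapped a processed pseudogene (2.439%, 1.288 to 4.57), against 0.6654% (0.5224 to 0.8471) of lost and 0.7827% (0.6856 to 0.8935) of kept regions. The other 7 were at ATP6V0CP4, TUBAP2, ENSG00000260082, CLUHP6, SOWAHCP5, HNRNPKP4 and KRT18P31, and pseudogenes were examined after the values of CCSER1 had been seen. With the top 38000 peaks the share of gained regions was 0.7403%, close to 0.8083% of kept regions. Reads of near-identical copies may be placed at either, and their part in these gains was not tested. The region near CPNE7 was low in fold, at 2.127 and 1.958, and was open in all 4 libraries of the other mutants. AMOTL1, an angiomotin family gene, held an intronic region with 8.32 and 6.117 that was open in A677G only. ADARB1, an RNA-editing deaminase gene, had 4.737 and 9.476, RNF34, an E3 ubiquitin ligase gene, 7.035 and 6.934, and MINDY3, a deubiquitinase gene, 7.576 and 5.563. MTUS2 had 5.58 and 7.344, and the intergenic regions near STK17A and PSMB1 had 5.662 and 8.314 and 5.164 and 8.73.

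The genes with the most lost regions also held kept ones. They were long, from 629.3 kb for FOXP1 to 2305 kb for CNTNAP2, and the counts were not adjusted for length. Over all regions 9769 were lost beside 27725 kept with all peaks, and 2727 beside 23136 with the top 38000. With all peaks, CNTNAP2, a neurexin family gene, and PCDH9, a protocadherin, each held 13 lost regions beside 17 kept. FOXP1 held 12 lost and 10 kept, AUTS2 11 lost and 21 kept, and the glypican gene GPC5 11 lost and 18 kept. In the equal-length lists GPC5 held 6 lost and 12 kept, LRP1B 4 lost and 9 kept and FOXP1 4 lost and 5 kept. The neuronal adhesion gene LSAMP held 4 lost and 2 kept, so that lost regions outnumbered kept ones there. The most gained regions lay in GSE1, with 6 gained and 14 kept. EFNA5, an ephrin, MECOM, a zinc finger factor, and WWOX held 4 gained each, beside 6, 10 and 5 kept. GMDS held 3 gained and 11 kept. Of these gains few were present with all peaks, with 0 in GSE1, 1 in EFNA5, 1 in MECOM, 2 in WWOX and 0 in GMDS. In windows of 5 Mb, the most lost regions of the top 38000 setting lay on chromosome 14 at 20 to 25 Mb (16 lost, 111 kept) and on chromosome 6 at 25 to 30 Mb (16 lost, 158 kept). As shares of lost and kept regions together these were 12.6% and 9.195%, against 10.54% over all regions, so that the second window was below the background. The next were chromosome 19 at 15 to 20 Mb, chromosome 6 at 135 to 140 Mb and chromosome 22 at 35 to 40 Mb, with 15, 15 and 14 lost, or 11.03%, 23.81% and 10.85%. The most gained lay on chromosome 16 at 85 to 90 Mb (21 gained, 84 kept). Chromosome 13 at 60 to 65 Mb followed (15 gained, 25 kept). Next was chromosome 16 at 0 to 5 Mb with 14 gained. Then came 2 windows of chromosome 1, at 25 to 30 and 180 to 185 Mb, with 11 each. In this order the gains were 20%, 37.5%, 8.235%, 10% and 14.67% of gained and kept regions together, against 6.548% over all regions. With all peaks the same windows held only 4, 5, 4, 1 and 4 gained regions.

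Gene families known as Polycomb targets were then described, with the background of 2.19% beside them. In these and the following gene lists, only ITGA10 was gained with all peaks. Every other member called gained with the top 38000 peaks had a peak in 1 or both full WT lists. Of the HOX genes, which pattern the body axis, 27 of 39 were open in both WT libraries and 3 of these were lost (11.11%, 3.852 to 28.06). HOXA5 had a −log10 p of 4.678 and 3.888, HOXA11 3.916 and 4.108, and HOXB2 6.476 and 6.119 in WT. Only HOXB2 was also lost with the top 38000 peaks. Of 90 open homeodomain and paired genes outside HOX, 4 were lost, namely PAX8, GSX2, MEIS3 and PAX1, at −log10 p values of 3.379 to 7.111. In the top 38000 setting MEIS3 and PAX5 were lost and PAX7 and CUX2 gained. PAX5 had 17.0 and 16.95 in WT, none in the first A677G library and 3.704 in the second within 1 kb, and its region was kept. Forkhead genes lost 2 of 33 (FOXK1 and FOXE1), SOX, TBX and GATA genes 2 of 25 (SOX8 and TBR1, the latter by extent), and WNT pathway genes 1 of 42 (WNT6, by extent). FOXR1 was gained among the top 38000 peaks, with a peak of 4.734 in the second full WT list.

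Among genes of neuronal signalling, glutamate and GABA receptor subunits lost 4 of 23 (17.39%, 6.979 to 37.14). Among them were GABRB2 with 3.566 and 3.282 and GRIN1 with 4.093 and 3.218 in WT, neither of which had a promoter peak in the other mutant lines. With the top 38000 peaks 0 were lost, for which 12 subunits were open in both WT libraries. Potassium channels lost 5 of 60 (8.333%, 3.612 to 18.07), among them KCNF1, KCNQ1, KCNK7 and KCNC2, at 3.209 to 5.809. KCND3 was lost and KCNK2, KCNJ13 and KCNMA1 were gained with the top 38000 peaks. KCNK2 and KCNMA1 were kept with all peaks. KCNK2 had 4.114 and 3.238 in WT against 5.193 and 4.573 in A677G, and KCNMA1 4.88 and 5.005 against 4.454 and 4.986. Axon guidance genes lost 3 of 59 (EPHB2, NTNG2 and PLXNB2) and gained DRAXIN, SEMA4D and NTN4 with the top 38000 peaks. The clustered protocadherins, which give neurons their surface identity, were mostly closed, with 7 of 53 open in both WT libraries. PCDHA11, with 5.256 and 4.759, and PCDHGA7, with 5.128 and 3.726, were lost and 2 were kept.

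Cadherins outside the clusters lost 0 of 28, and CDH3 and CDH20 were gained with the top 38000 peaks. Collagens and integrins lost COL5A2 and ITGB2 of 50, gained ITGA10 in both settings, and gained COL22A1, COL17A1 and COL6A1 with the top 38000 peaks. Solute carriers lost 9 of 234 (3.846%, 2.036 to 7.147), the strongest being SLC4A3, with 6.95 and 5.666, which was also lost with the top 38000 peaks. The others were SLC6A5, SLC19A1, SLC22A31, SLC22A3, SLC17A8, SLC13A5, SLC16A5 and SLC24A3, and SLC30A2 and SLC44A4 were gained with the top 38000 peaks. ZNF genes, many of them KRAB repressors, lost 11 of 410 (2.683%, 1.505 to 4.74), close to the background. ZNF502 led, followed by ZNF385C at 6.285 and 7.998, ZNF880 at 7.724 and 5.702 and ZNF28 at 5.559 and 7.291. In the equal-length lists 6 of 386 were lost (1.554%, 0.7143 to 3.349, against 0.723% of all genes), including ZNF287, and 3 of 382 were gained, where the share of all genes was 1.47%.

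**Figure D4:**
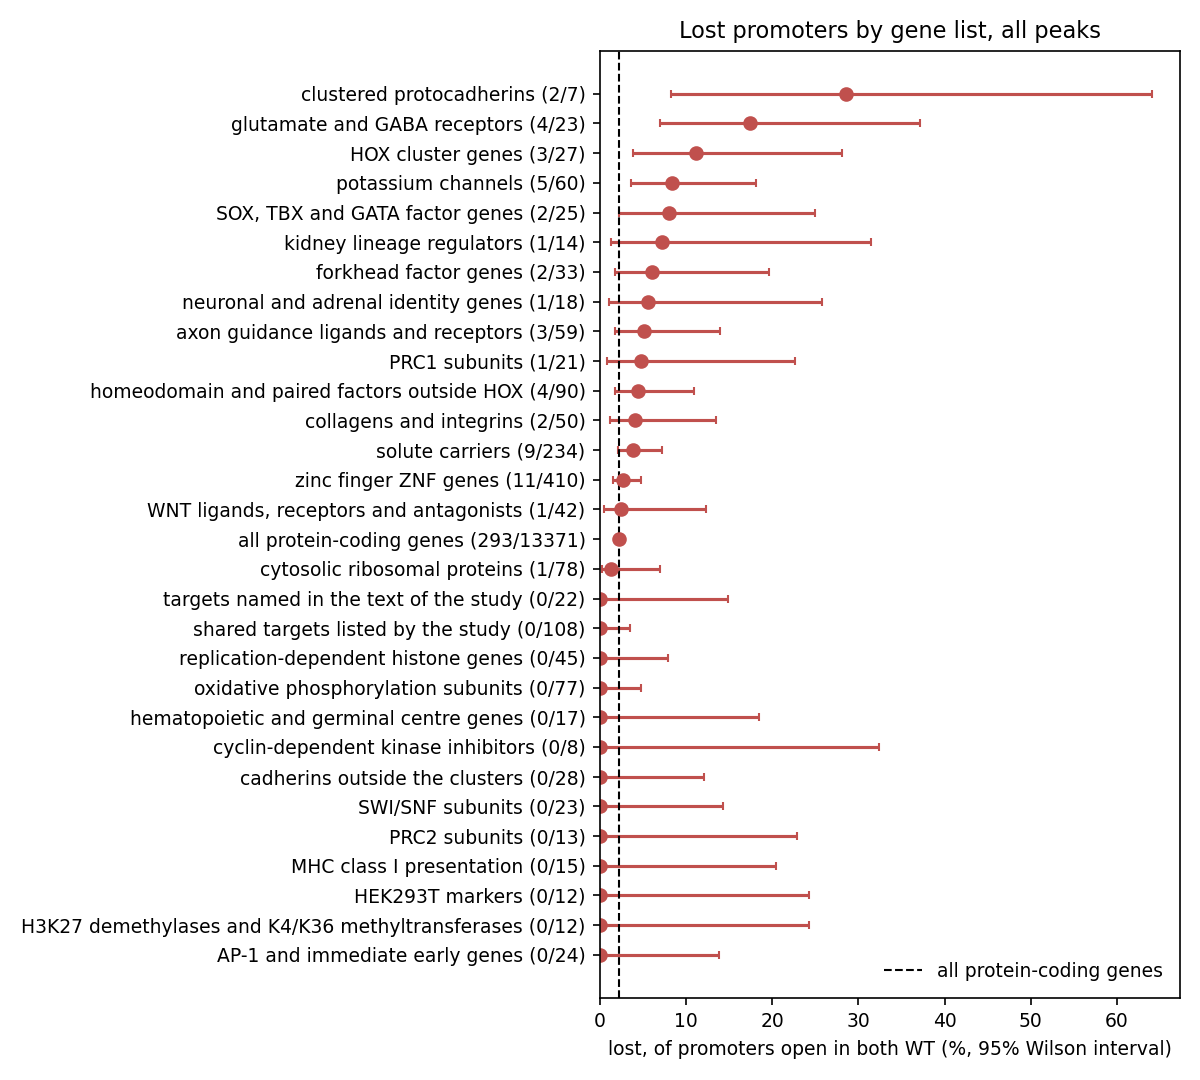
Share of promoters lost in A677G among those open in both WT libraries (percent, horizontal axis) for each gene list with at least 7 such members, with 95% Wilson intervals, lost and open counts in brackets, and the share of all genes (2.19%) as a dashed line. Glutamate and GABA receptors reach 17.39% on 4 of 23, ribosomal protein genes are at 1 of 78 and oxidative phosphorylation genes at 0 of 77.

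Lists of housekeeping and chromatin genes had few lost promoters, as did genes in general. Ribosomal protein genes lost 1 of 78, RPL17, at 4.372 and 6.902 in WT, and RPL19 was gained with the top 38000 peaks. Oxidative phosphorylation genes lost 0 of 77 and histone genes 0 of 45. PRC2 genes lost 0 of 13, and PRC1 genes 1 of 21, the chromobox gene CBX6 at 4.184 and 4.77 (4.762%, 0.8456 to 22.67). H3K27 demethylases with K4 and K36 methyltransferases lost 0 of 12, SWI/SNF subunits 0 of 23, AP-1 and immediate early genes 0 of 24, MHC class I genes 0 of 15 and cyclin-dependent kinase inhibitors 0 of 8. At a background of 2.19% lists of this size hold few lost members or none, so nothing is read from these counts. CDKN1C, one of these inhibitors, was gained with the top 38000 peaks, at 9.32 and 5.38 in A677G against 5.255 and 4.745 in WT. Hematopoietic and germinal centre genes lost 0 of 17 with all peaks and PAX5 with the top 38000. Olfactory receptors lost 0 of 4. The lower bound of the interval exceeded 2.19% for the clustered protocadherins, the glutamate and GABA receptors, the HOX genes and the potassium channels. It did so barely for the SOX, TBX and GATA genes, and each of these lists had 2 to 5 lost members. With the top 38000 peaks the protocadherins lost 0 of 3, the receptors 0 of 12 and the potassium channels 1 of 42. HOX genes lost 1 of 22 and SOX, TBX and GATA genes 1 of 21, against 0.723% of all genes. TBR1, whose region was kept, counted in both settings. Many lists were compared and genes are not independent, so these bounds are no test of enrichment. Lost promoters had weak peaks in WT, and the part of peak strength in these shares was not tested.

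The cell line label was checked with markers. All 12 HEK293T markers, such as PAX2, LHX1, SALL1, VIM and NEFL, had a promoter peak in all 4 libraries, and none of 12 markers of blood, liver, melanocytes, muscle or endothelium had one in any of them. Of 14 open kidney lineage regulators PAX8 was lost, at 5.761 and 3.723, while RET and OSR1, open in both WT libraries, had a peak in the second A677G library but not the first. Of 18 open neuronal and adrenal identity genes 1 was lost and 16 were kept. All 22 coding genes that the study names as targets kept their promoter peak. EGFR had a −log10 p of 9.076 and 8.207 in WT and 11.79 and 12.44 in A677G, MET had 10.52 and 7.987 against 8.17 and 5.706, RPRM had 9.739 and 9.744 against 6.127 and 8.11, and WNT16 had 5.217 and 6.018 against 4.178 and 4.018. Of the 108 shared targets that the study lists, 0 were lost and 106 were kept, and NTN4 was gained with the top 38000 peaks. Over all genes open in both WT libraries the shares were 2.19% lost and 93.51% kept. The counts are therefore not read as a result about the targets. The study chose both lists on samples of these lines, with a test on read counts, so they are not independent evidence. A kept peak may still hold less signal, so these calls do not bear on the reduced accessibility that the study reported.

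Regions lost in A677G were compared with the peaks of the other mutants, whose lists also differed in length, with 25423 and 35380 peaks in Y641F and 46317 and 47164 in H689A/F667I. A peak was present at 5.671% and 14.6% of lost regions in Y641F and at 35.43% and 36.79% in H689A/F667I. For kept regions these shares were 69.01% and 86.27%, and 95.37% and 95.6%. No library of the other mutants had a peak at 4082 of the 9769 lost regions, and 1236 were open in both H689A/F667I libraries and in neither Y641F library, against 38 in the reverse case. Of the gained regions, 13.55% and 20.87% had a peak in Y641F and 26.83% and 34.69% in H689A/F667I, and 158 of 369 had a peak in neither mutant. The shorter lists of Y641F allow fewer peaks at any class, and the part of list length in these shares was not tested.

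**Figure D5:**
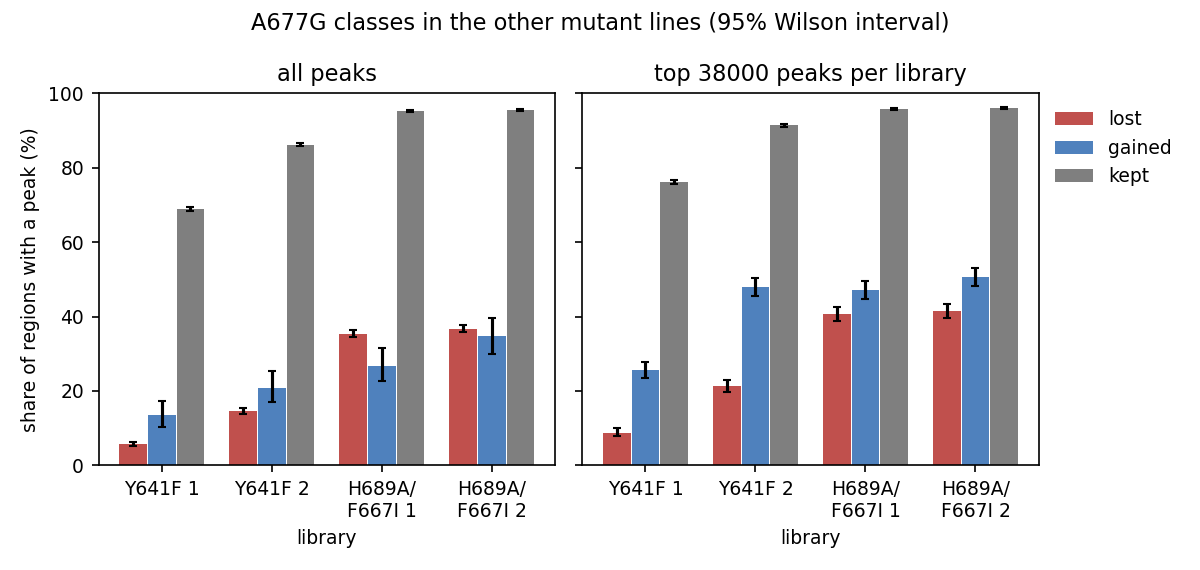
Share of lost, gained and kept regions with a peak in each library of EZH2 Y641F and EZH2 H689A/F667I (percent, vertical axis), with 95% Wilson intervals, for all peaks (left) and the top 38000 (right). Both Y641F lists held fewer than 38000 peaks and entered whole on the right, so lists there are not of equal length. Lost regions have a peak at 5.671% and 14.6% in Y641F and at 35.43% and 36.79% in H689A/F667I, and kept regions at 69.01% or more.

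Sequence composition, which the classes did not use, differed between classes. The central 300 bp of lost regions had a median GC content of 46.33% and of kept regions 58.33%, with 52.33% for gained regions and 50.33% for all 84331 regions. A ratio of observed to expected CpG over 0.6, as in CpG islands, was found at 6.562% of lost, 4.065% of gained and 46.01% of kept regions. Outside promoters the medians were closer, at 46.0%, 52.0% and 50.67%. Lost promoters had a median of 57.67% against 68.0% for kept promoters, and 38.27% of them passed a CpG ratio of 0.6 against 83.48%.

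Among motifs outside promoters, the GC box was found in 8.224% (7.679 to 8.803) of lost, 13.37% (10.18 to 17.38) of gained and 19.33% (18.71 to 19.96) of kept regions, against 11.06% of all such regions. The AP-1 motif was found in 14.53% (13.82 to 15.27) of lost, 8.43% (5.934 to 11.84) of gained and 11.35% (10.86 to 11.86) of kept regions, against 12.4% of all. The CTCF core was found in 7.94% of lost, 4.942% of gained and 10.01% of kept regions, against 7.358% of all. In the equal-length lists the CTCF core was more frequent in lost regions, at 12.58% (11.35 to 13.93), than in gained ones, at 5.382% (4.309 to 6.704), with 10.91% (10.36 to 11.49) of kept and 9.38% of all such regions, and the AP-1 shares came closer, at 12.39%, 11.93% and 11.02%. GATA matches were found in 19.81% of lost, 14.53% of gained and 16.07% of kept regions with all peaks, against 17.44% of all, and in 17.37%, 20.36% and 15.19% with the top 38000, against 16.8%, so that the order of lost and gained regions turned with the setting. GC content moved with the GC box, and its part in these shares was not tested.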

How the data were processed

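ATAC-seq peaks of 2 EZH2 WT and 2 EZH2 A677G libraries of HEK293T cells were analysed, with the libraries of 2 other EZH2 mutants for reference. Groups and replicate numbers came from the sample titles. The labels' extraction text speaks of CUT&Tag libraries, and the assay is called ATAC-seq here after the titles and the study's methods. The authors trimmed reads with Trim Galore 0.6.5, aligned them to GRCh38/hg38 with BWA 0.7.17, removed duplicates and called peaks in each library with MACS2 2.2.7.1, and the submitters' processing notes also name deepTools 3.5.1. The transposase shift, peak settings and read depth were not given in the sources used here. For each broad peak the deposited lists give a fold (ratio of pileup to background) with a −log10 p, a −log10 q and an unused score. Hence the count-based test of the study was replaced by overlap of peaks, and a region without a peak may still hold signal.

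Peaks sharing 1 bp or more were merged with Python 3.11 and pandas, after ranking each whole list for the top 38000 setting. GENCODE 44 was used to assign regions, with promoters taking precedence over exons and exons over introns. Every peak end lay within the hg38 chromosomes. Class functions recovered all regions planted in lists simulated from 1 WT library. Those lists had no peaks particular to a library, so this checks the code and not the calls. Named promoters and regions were the 10 strongest of each class, or fewer where fewer exist, found in both settings, by mean −log10 p, and the kept promoters were the 5 with the highest lowest −log10 p over the 4 libraries. Named loci were the 5 genes and 5 windows with most members. List members were named where lost or gained, the 5 strongest in lists with more than 12 such members. Members and lists were chosen with earlier results of these data known. Exact permutation tests were used for the number of peaks and their covered length. All other comparisons are descriptions with 95% Wilson intervals. Some genes that met these rules are not reported here.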

Additional observations from a re-analysis of the deposited data

How the results depend on the processing

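Peak number and covered length were lower in A677G in every alternative, apart from peak number in lists cut to equal length, where it is fixed. The log2 ratio of covered length was -0.35 with the top 38000 peaks, and at a minimum −log10 q of 5 those of peak number and covered length were -0.89 and -1.07. Without each library in turn the log2 ratio of peak number ranged from -0.74 to -0.46 and that of covered length from -0.90 to -0.64. No replicate pairing is stated beyond shared numbers, and over 27725 kept regions the library differences of the 2 groups had a correlation of -0.0028, so the numbers were not taken to pair samples. With a replicate block the log2 ratios were -0.60 and -0.77 (exact permutation p = 0.5, the smallest value within 2 pairs), and each pair alone gave 30828 and 24023 lost and 4478 and 7623 gained regions. With the top 38000 peaks there were 2727 lost and 1621 gained regions, promoter shares of 48.7% for kept and 15.18% for gained regions, and 88 lost and 182 gained promoters. At a minimum −log10 q of 5 there were 5233 lost, 55 gained and 8726 kept regions, promoter shares of 31.45%, 23.64% and 69.34%, and 1599 lost promoters. When peaks had to cover 50% of a region, 15445 regions were kept and the promoter share was 13.57% for lost and 54.24% for kept regions. Merging peaks under 1 kb apart gave a promoter share of 5.517% for lost regions, and promoters within 500 bp gave 4.965% for lost and 42.96% for kept regions. Judging promoters by merged regions, an alternative added after the data were seen, gave 276 lost and 14 gained promoters. The causes of these differences were not tested.

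Without each library in turn, lost regions ranged from 12547 to 22814, gained regions from 790 to 5719 and kept regions from 28164 to 34451. The promoter share ranged from 5.032% to 7.62% for lost, from 37.26% to 43.31% for kept and from 5.106% to 8.487% for gained regions. Lost promoters ranged from 436 to 725 and gained promoters from 30 to 106. Leaving a library out requires fewer peaks of a region and so enlarges the classes. The lowest counts of gained regions, 813 and 790, came without WT replicate 1 and 2, and 5719 and 3467 came without A677G replicate 1 and 2. Lost regions were 20847 and 22814 without a WT library and 12547 and 16496 without an A677G library. Under the stricter −log10 q limit, 16 of the 38 named promoters and regions no longer held their class, mostly gained ones.

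Peak lists hold no read depth, and a region without a peak in A677G is not shown to lack signal. The balance of gains and losses moved with the length of the lists.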
